A study of Mus musculus with 8 samples.

Results

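CC chemokines are small secreted proteins named for a pair of neighbouring cysteines, and they draw leukocytes along a gradient through G protein-coupled receptors. Macrophages are a main source of several of them. Ccl2, Ccl7 and Ccl12 encode monocyte chemoattractant proteins that act on the receptor CCR2, Ccl3 and Ccl4 encode macrophage inflammatory proteins, Ccl5 encodes a chemoattractant of T cells and monocytes, and Ccl6 and Ccl9 encode rodent chemokines that act on CCR1. The 8 genes described here, Ccl2, Ccl3, Ccl4, Ccl5, Ccl6, Ccl7, Ccl9 and Ccl12, are those rows of the deposited table whose probe set number is the Entrez gene number of a member. All 8 were found among 24011 genes with 1 symbol, and no filter on low values was applied to them.

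The samples were primary macrophages grown for 7 days with L cell-conditioned medium, a source of the growth factor M-CSF, from bone marrow of wild-type mice aged 8 to 10 weeks, whose strain and sex the labels do not state. Of 8 Affymetrix whole-transcript arrays, 4 were of cells given hepcidin at 10 µg/ml for 1 h and 4 of cells given PBS. Hepcidin, a peptide hormone, binds ferroportin, the iron exporter of the cell. Samples carry the numbers 1 to 4 within a group, and nothing in the labels ties a number to an animal or a culture, so the p-values cover the spread between these samples only, and that spread may be technical. Equal numbers are treated as pairs in the differences within pairs and in fits with the replicate number as a block, since arrays with the same number deviated together. Where limma is named without the block, the pairs are not used.

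Levels are log2 values after RMA, a method that corrects background, equalises the distribution of arrays and summarises probes. Array medians ranged from 4.87 to 4.95. Precision is limited by the small number of arrays. The macrophage genes Csf1r, Adgre1 and Cd68 averaged 11.85, 11.47 and 13.14 with hepcidin and 11.77, 11.38 and 13.12 with PBS, so the defining markers of the labelled cell type were present. Background was gauged from 24 markers of T and NK cells, B cells and endothelium, whose median was 4.24 and whose 90th percentile was 6.16. The means of the T and NK cell list lay at 3.88 to 4.01 with hepcidin and at 3.98 to 4.08 with PBS. In a bulk sample, fewer cells of a type and less RNA per cell cannot be told apart. Both arrays numbered 1 stood apart from the other 6, as described below, and differences without them are given for each of the 8 members.

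In the RefSeq annotation of the mouse genome, GRCm38.p6, all 8 genes lie on chromosome 11, in 2 groups of neighbours. Ccl2, Ccl7 and Ccl12 lie in one, with Ccl11 between Ccl7 and Ccl12. Ccl5, Ccl9, Ccl6, Ccl3 and Ccl4 follow each other in the other with no further protein-coding gene between them. Promoter sequences were matched for 4 of the 8 members, those of Ccl3, Ccl6, Ccl9 and Ccl12. All 4 are shown, as the genes differed in how they varied. Ccl3 had the smallest p of the members in limma for hepcidin against PBS, Ccl6 and Ccl9 had the smallest mean differences, and Ccl12 varied most between array numbers. Each line gives the 250 bases before the gene's start, from RefSeq with the build GRCm38.p6, 5′ to 3′ on the gene's strand, and capitals mark matches to the motifs searched.

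Ccl3, chr11:83649379-83649628, minus strand: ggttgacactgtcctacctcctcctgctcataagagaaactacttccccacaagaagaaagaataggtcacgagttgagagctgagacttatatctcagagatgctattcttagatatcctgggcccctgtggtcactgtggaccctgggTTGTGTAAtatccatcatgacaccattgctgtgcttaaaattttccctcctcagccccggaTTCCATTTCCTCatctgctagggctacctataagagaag
Ccl6, chr11:83593088-83593337, minus strand: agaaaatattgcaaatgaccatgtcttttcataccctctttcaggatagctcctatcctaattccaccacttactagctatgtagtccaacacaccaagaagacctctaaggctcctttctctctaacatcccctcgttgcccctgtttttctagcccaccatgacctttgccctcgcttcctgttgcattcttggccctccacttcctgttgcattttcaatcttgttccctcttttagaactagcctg
Ccl9, chr11:83578637-83578886, minus strand: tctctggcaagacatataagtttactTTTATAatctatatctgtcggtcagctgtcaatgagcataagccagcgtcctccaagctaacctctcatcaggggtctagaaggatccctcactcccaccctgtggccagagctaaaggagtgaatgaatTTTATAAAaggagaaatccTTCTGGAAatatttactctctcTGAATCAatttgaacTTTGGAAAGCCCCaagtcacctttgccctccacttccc
Ccl12, chr11:82101595-82101844, plus strand: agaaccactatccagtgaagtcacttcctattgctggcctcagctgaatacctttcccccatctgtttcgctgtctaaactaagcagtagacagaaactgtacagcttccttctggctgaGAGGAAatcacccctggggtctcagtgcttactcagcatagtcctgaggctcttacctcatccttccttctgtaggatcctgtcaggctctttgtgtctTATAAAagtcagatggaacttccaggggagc

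The motifs were the NF-kB consensus, TGANTCA for AP-1, GAGGAA for PU.1, TATAAA for the TATA box, GAAANNGAA for the interferon response element and TTNNGNAA for C/EBP, each searched on both strands. Of 32851 promoter windows of the same length, 3.90% held the NF-kB consensus, 6.75% TGANTCA, 23.3% GAGGAA, 12.4% TATAAA, 7.13% GAAANNGAA and 36.8% TTNNGNAA. The Ccl3 window held a match to TTNNGNAA at 100 to 93 bases before the start and one to GAGGAA at 33 to 28 bases, which overlaps a match to GAAANNGAA at 39 to 31 bases. The Ccl9 window held 1 match to the NF-kB consensus, at 35 to 26 bases before the start, which overlaps a match to TTNNGNAA at 38 to 31 bases, and 1 to TGANTCA at 53 to 47 bases. It also held a second match to TTNNGNAA, at 75 to 68 bases, and 3 to TATAAA, 2 of which overlap each other. The Ccl12 window held TATAAA at 31 to 26 bases and GAGGAA at 130 to 125 bases, and the Ccl6 window held no match to any of the 6. The longest run of bases shared by 2 of the 4 windows was gccctccacttcc, 13 bases, 55 bases before the start of Ccl6 and 14 bases before that of Ccl9. These matches describe the letters in the windows and do not show binding.

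Without hepcidin, 7 of the 8 genes lay above the 90th percentile of the background markers. Probe sets differ in how strongly they bind, so the levels are not ranked between genes. PBS levels averaged 12.68 ± 0.14 for Ccl9, 11.92 ± 0.06 for Ccl3, 10.67 ± 0.36 for Ccl2, 10.22 ± 0.40 for Ccl7, 10.11 ± 0.17 for Ccl6, 8.45 ± 0.32 for Ccl4 and 6.66 ± 0.19 for Ccl5 (SD, n = 4). Ccl12 averaged 5.67 ± 1.36, within the range of the background markers.

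The comparison of hepcidin with PBS asked whether the CC chemokine genes respond within 1 h. The mean difference lay above 0 for all 8 genes, where 50.4% of all genes had one above 0. The 8 were measured on the same arrays, so their directions are not independent. Ratios ran from 1.03 for Ccl6 to 1.21 for Ccl12, and none passed the test. In limma, fitted over all genes, each member had an adjusted p of 1.00, and 0 of the 24011 genes passed at 0.05, or 0% of those tested. The unadjusted p was under 0.05 for 686 genes. With the replicate number as a block, 0 of 8 members passed, against 1 gene in all, Cxcl2, or 0.00416% of those tested. The median log2 difference of the 8 members was 0.17, against 0.00095 over all genes. It was 0.071 without both arrays numbered 1, and leaving out single arrays gave 0.021 (without PBS array 1, where 4 of 8 members lay above 0) to 0.22 (without PBS array 4), with 0.054 without hepcidin array 3. In none of the 8 were the groups apart, where hepcidin lay wholly above PBS for 0.845% of all genes and wholly below for 1.03%. Of the 32 differences within pairs, 26 lay above 0. By pair, 7, 7, 8 and 4 of the 8 members were above 0 in pairs 1 to 4, with medians of 0.29, 0.12, 0.15 and -0.03, where 51.5%, 49.9%, 47.2% and 50.2% of all genes were above 0.

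**Figure D1:**
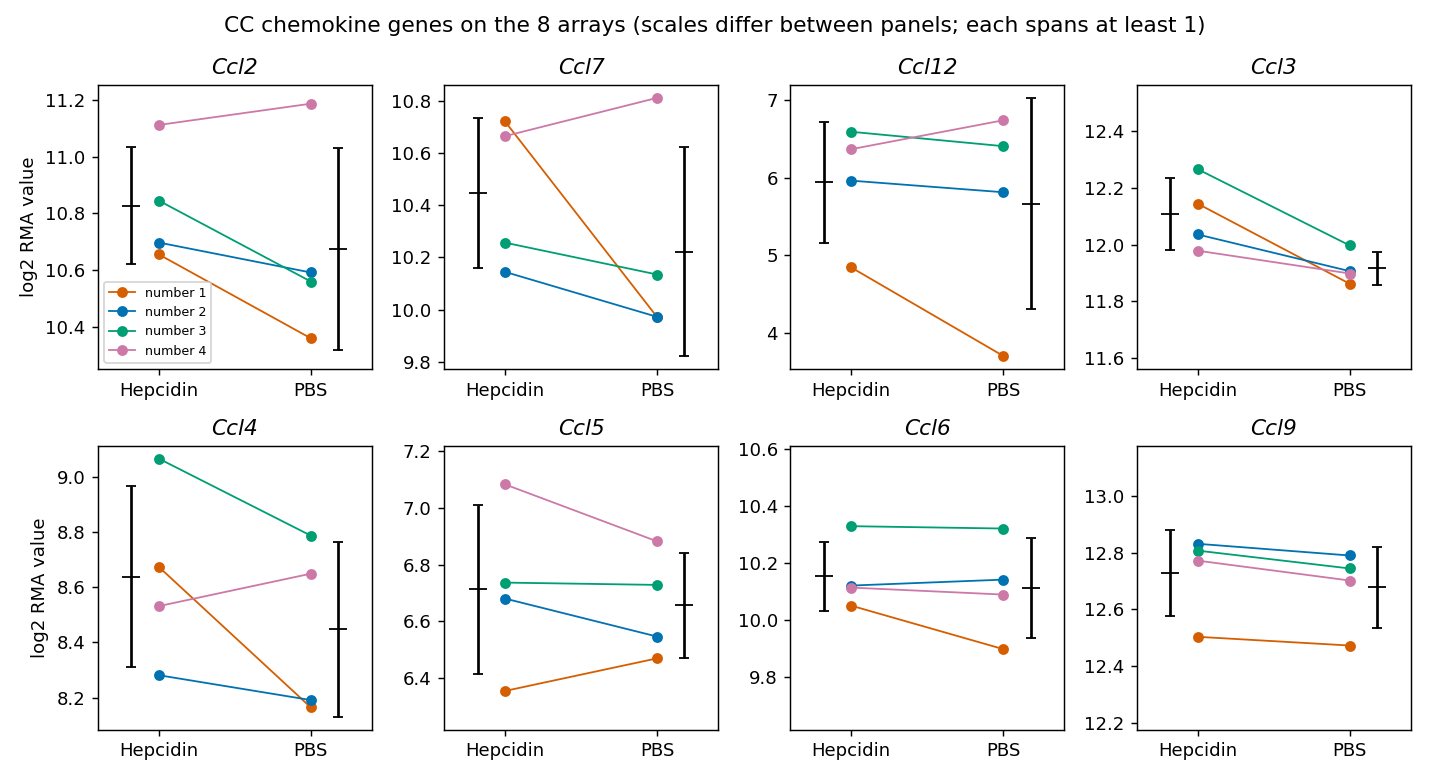
Log2 RMA value of each CC chemokine gene on the 4 hepcidin and 4 PBS arrays, with lines joining arrays with the same number and black bars for mean ± SD. Ccl3 and Ccl9 are the members whose 4 lines all run higher with hepcidin, and in every panel the groups overlap.

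Of the 8 members, the macrophage inflammatory protein gene Ccl3 had the largest difference relative to its SE in limma, without and with the replicate block. That SE draws on the variance of all genes. The differences within pairs alone were steadier for Ccl9, with an SD of 0.018 around a mean of 0.051. For Ccl3 the SD was 0.10 around a mean of 0.19. It had log2 levels of 12.14, 12.04, 12.27 and 11.98 on hepcidin arrays 1 to 4, against 11.86, 11.91, 12.00 and 11.90 on PBS arrays 1 to 4. It was higher with hepcidin in 4 of 4 pairs, and the groups overlapped only in that hepcidin array 4 lay below PBS array 3. The difference was 0.19 ± 0.09 (SE) in limma, a ratio of 1.14 with a 95% confidence interval from 1.00 to 1.30. Its unadjusted p was 0.0498 in limma and 0.0345 in limma with the replicate block, where the adjusted p was 0.970. Ccl3 was the 1 of 8 members with an unadjusted p under 0.05, where 1.33% of all genes had one and were higher with hepcidin (2.34% with the block). Without both arrays numbered 1 the difference was 0.16 and the unadjusted p in limma 0.152, or 0.0924 with the block.

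Ccl4, the neighbour of Ccl3, had 8.67, 8.28, 9.07 and 8.53 on hepcidin arrays 1 to 4, against 8.16, 8.19, 8.79 and 8.65 on PBS arrays 1 to 4. The groups overlapped widely, and 3 of 4 pairs were higher with hepcidin. The mean difference equalled that of Ccl3 to 2 decimals, 0.19, but its SE in limma was 0.19, and the interval of the ratio ran from 0.85 to 1.53. With the replicate block the interval ran from 0.96 to 1.36. Pair 1 had the highest difference, 0.51, pair 4 the lowest, -0.12, and without both arrays numbered 1 the mean difference was 0.08.

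Ccl2, the best known monocyte attractant of macrophages, had 10.66, 10.70, 10.85 and 11.11 on hepcidin arrays 1 to 4, against 10.36, 10.59, 10.56 and 11.19 on PBS arrays 1 to 4. The array numbered 4 was the highest in both groups and the array numbered 1 the lowest. Its difference was 0.15 ± 0.17 (SE) in limma, a ratio of 1.11 with an interval from 0.85 to 1.45, or from 0.97 to 1.28 with the replicate block. Pairs 1 to 3 were higher with hepcidin and pair 4 was lower, at -0.07. The mean difference was 0.11 without both arrays numbered 1.

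Ccl7, the gene next to Ccl2, had 10.72, 10.14, 10.26 and 10.66 on hepcidin arrays 1 to 4, against 9.97, 9.97, 10.13 and 10.81 on PBS arrays 1 to 4. On the PBS arrays number 4 stood above the rest, and on the hepcidin arrays numbers 1 and 4 did. The difference of 0.22 ± 0.20 (SE) in limma rested mainly on pair 1, at 0.75, against 0.17, 0.12 and -0.15 in pairs 2 to 4. Without both arrays numbered 1 it was 0.05, with an interval from -0.47 to 0.57, or from -0.18 to 0.28 with the block.

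Ccl12, a further CCR2 ligand gene, had 4.85, 5.96, 6.59 and 6.37 on hepcidin arrays 1 to 4, against 3.71, 5.81, 6.41 and 6.74 on PBS arrays 1 to 4. It had the largest mean difference of the 8, 0.28, and the largest error, 0.61 (SE) in limma and 0.21 with the replicate block. Pair 1 alone gave 1.14, between 2 arrays with levels in the range of the background markers, and pair 4 gave -0.37. Without both arrays numbered 1 the mean difference was -0.01, so its direction rested on that pair.

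Ccl5 had 6.35, 6.68, 6.74 and 7.08 on hepcidin arrays 1 to 4, against 6.47, 6.55, 6.73 and 6.88 on PBS arrays 1 to 4. The same order of array numbers was seen in both groups, and the difference between groups was 0.06 ± 0.15 (SE) in limma. The interval of its ratio ran from 0.91 to 1.18 with the replicate block, and the difference was 0.11 without both arrays numbered 1.

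Ccl6 and Ccl9, neighbours on the chromosome, had the 2 smallest mean differences, 0.04 ± 0.11 and 0.05 ± 0.10 (SE) in limma. Ccl6 had 10.05, 10.12, 10.33 and 10.11 on hepcidin arrays 1 to 4, against 9.90, 10.14, 10.32 and 10.09 on PBS arrays 1 to 4. Ccl9 had 12.50, 12.83, 12.81 and 12.77 on hepcidin arrays 1 to 4, against 12.47, 12.79, 12.74 and 12.70 on PBS arrays 1 to 4. The array numbered 1 was the lowest of both genes in both groups. Ccl9 was higher with hepcidin in 4 of 4 pairs, by 0.03 to 0.07, and with Ccl3 it made 2 of 8 members, where 5.69% of all genes were higher in 4 of 4 pairs. With the replicate block the interval of the ratio ran from 0.92 to 1.15 for Ccl6 and from 0.93 to 1.15 for Ccl9. The differences were 0.0040 for Ccl6 and 0.06 for Ccl9 without both arrays numbered 1.

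**Figure D2:**
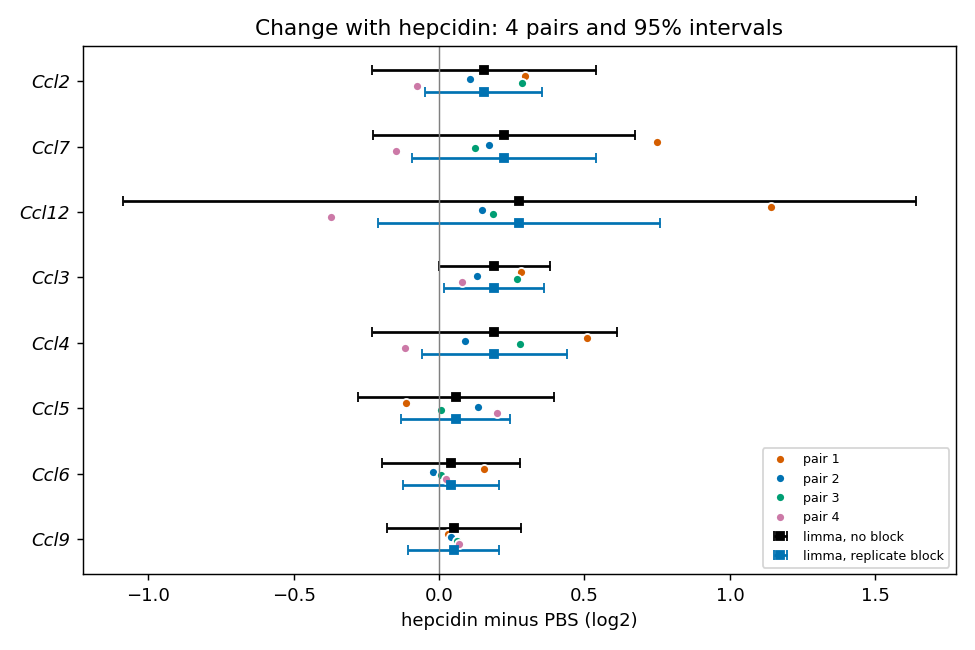
Log2 difference, hepcidin minus PBS, for each gene in pairs 1 to 4 (circles), with the mean and its 95% confidence interval in limma without and with the replicate block (squares with bars). The interval of Ccl3 starts at 0.00 without the block and at 0.02 with it, and the other 7 genes have intervals that hold 0 in both fits.

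Whether the change differed between Ccl3 and Ccl2 was tested on the ratio of both within each array. These 2 genes do not stand for the groups of neighbours they lie in. The log2 difference of Ccl3 exceeded that of Ccl2 by 0.04, with values of -0.01, 0.02, -0.02 and 0.16 in pairs 1 to 4. An exact two-sided permutation test over the 70 splits of the arrays gave p = 0.800, where the smallest p it allows is 0.0286. The 95% confidence interval of that excess in limma without the block ran from -0.39 to 0.46. Neither this interval nor the 70 splits use the pairs, and no interval that uses them is given. The size of a difference that these 8 arrays could detect was therefore not settled. The excess was 0.05 without both arrays numbered 1.

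For 7 of the 8 genes, the range over the PBS arrays, from 0.32 for Ccl9 to 3.03 for Ccl12, exceeded the mean difference with hepcidin. The exception was Ccl3, with a range of 0.13. These ranges do not use the pairs, and differences within pairs take off what arrays with the same number share. For Ccl12, array 1 minus the mean of the other 3 was -1.46 with hepcidin and -2.61 with PBS. No fold is given, since 3.71 on PBS array 1 lay below the median of the background markers and 4.85 on hepcidin array 1 below their 90th percentile. Ccr2, the receptor of Ccl2, Ccl7 and Ccl12, was at 5.98 on hepcidin array 1, with the mean of the other 3 higher by 2.73, and at 5.35 on PBS array 1, with the mean of the other 3 higher by 3.45. Beside this, the mean of 10 interferon-stimulated genes was 7.16 on hepcidin array 1, in a range up to 8.24, and 7.03 on PBS array 1, in a range up to 8.38. The mean of 10 genes of neutrophils and their precursors was 4.37 on hepcidin array 1, in a range up to 5.94, and 4.54 on PBS array 1, in a range up to 5.98, with 3 of the 10 above the 90th percentile of the background markers over all arrays. The mean of 8 macrophage identity genes was low on the same arrays, where array 1 minus the mean of the other 3 was -0.57 with hepcidin and -0.69 with PBS. Its genes did not all follow this mean. For Csf1r the mean of the other 3 minus array 1 was 0.34 with hepcidin and 0.52 with PBS. For Adgre1 it was 0.02 with hepcidin and 0.22 with PBS, and for Cd68 -0.003 with hepcidin and -0.02 with PBS. What part these cells or genes had in the level of Ccl12 was not tested.

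The other members differed less between numbers. On the hepcidin arrays, number 1 lay above the mean of the other 3 for Ccl7, by 0.37, and for Ccl3 and Ccl4, by 0.05 each. For Ccl5, Ccl9, Ccl2 and Ccl6 the same differences were -0.48, -0.30, -0.23 and -0.14. On the PBS arrays, number 1 minus the mean of the other 3 ranged from -0.42 for Ccl2 to -0.25 for Ccl5 among Ccl2, Ccl4, Ccl5, Ccl6, Ccl7 and Ccl9, and was -0.07 for Ccl3. Ccl3 had an SD of 0.13 on the hepcidin arrays, where that of Ccl6, 0.12, was the lowest of the 8, and an SD of 0.06 on the PBS arrays, the lowest of the 8 there. Over the PBS arrays, the median SD was 0.17 over the 9274 genes averaging 6 or more. Ccl2 and Ccl7 were highest with number 4 on the PBS arrays, and over the 6 arrays numbered 2 to 4 their levels correlated at 0.97 (Pearson), against 0.78 over all 8. This is a description, since arrays with the same number are not independent.

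**Figure D3:**
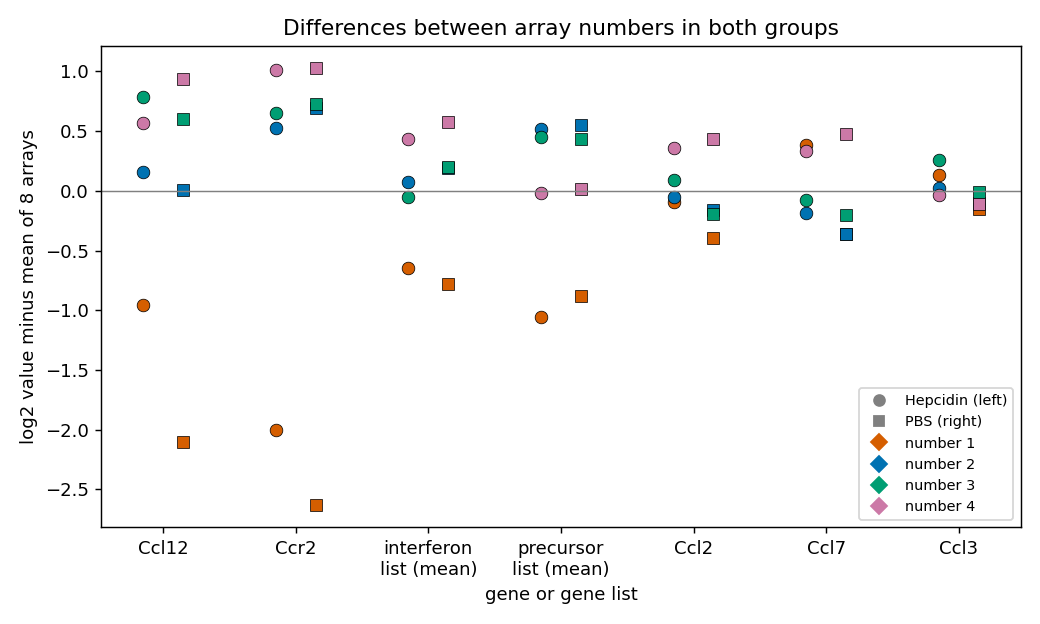
Log2 value minus the mean of all 8 arrays for Ccl12, Ccr2, the means of 10 interferon-stimulated and 10 neutrophil precursor genes, Ccl2, Ccl7 and Ccl3, with hepcidin arrays as circles, PBS arrays as squares and a colour for each number. Both arrays numbered 1 are low for the first 4, and Ccl3 stays near 0 on all 8.

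Genes whose levels were most like those of a member were taken as the 3 with the highest Pearson correlation over the 8 arrays among 9267 other genes averaging 6 or more. For Ccl3 they were Lrrc28, Poglut3 and Tifa (0.97, 0.96 and 0.94), for Ccl4 Phc1, Crim1 and the macrophage surface marker Adgre1 (0.98, 0.98 and 0.97), and for Ccl2 Ctsh, Drg1 and Il18bp (0.99, 0.97 and 0.96). For Ccl7 they were Ppme1, Slc39a14 and Polr2g (0.98, 0.97 and 0.97), and for Ccl12 9530068E07Rik, Pold2 and Arap3 (1.00, 0.99 and 0.99). For Ccl5 they were Gm14586, Rasgrp4 and Cd3eap (0.98, 0.97 and 0.95), for Ccl6 Suv39h2, Ppp1r21 and Prkd2 (0.99, 0.97 and 0.97), and for Ccl9 Lcn2, Foxn3 and Dtymk (0.99, 0.98 and 0.98). No member was named for another, since members were left out of the search. Without the arrays numbered 1, Dtymk stood at 0.74 with Ccl9 and Foxn3 at 0.81, and the other genes named here at 0.89 to 0.99. The highest of so many correlations over 8 arrays are high by selection, and the arrays share their numbers.

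Of 11 other CC chemokine genes measured, 0 passed in limma in either direction, with or without the block, and 5 were higher with hepcidin, with a median log2 difference of -0.01. The 2 with the smallest p were Ccl24, an eosinophil attractant gene, which averaged 3.71 ± 0.09 with hepcidin against 3.95 ± 0.19 with PBS (SD, 4 arrays each), and Ccl11, the eotaxin gene, at 3.76 ± 0.18 with hepcidin and 3.91 ± 0.05 with PBS. All 4 means lay below the background median. Of 13 receptor genes measured, 0 passed in limma in either fit and 8 were higher, with a median of 0.06. The 2 receptor genes with the smallest p, Ccr8 and the scavenging receptor gene Ackr4, differed by 0.28 ± 0.11 and 0.20 ± 0.12 (SE) at levels below the background median in both groups. Ccr1, the receptor of Ccl3, Ccl6 and Ccl9, averaged 8.19 ± 0.22 with hepcidin, against 8.20 ± 0.17 with PBS. Ccr2 differed by 0.09, with an SE in limma of 0.86, or 0.13 with the replicate block. Its direction rested on pair 1, at 0.63, against -0.17, -0.08 and -0.02 in pairs 2 to 4.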

How the data were processed

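The authors deposited log2 values, for which the submitters' processing notes name RMA and affy 1.36.1. The sources used here do not give the probe set definition or its genome build. The table held 24973 probe sets, of which 958 had no listed gene. Where a symbol had several probe sets (4 symbols), the brightest one stood for the gene, which left 24011 genes. Values ran from 1.73 to 13.6 and were used with no further normalization and no filter. RMA compresses ratios of dim genes.

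Groups and numbers came from the sample titles. Hepcidin was compared with PBS with lmFit and eBayes of limma 3.58.1 (R 4.3.3), using Benjamini-Hochberg adjustment over all genes and a threshold of 0.05. Differences are hepcidin minus PBS. The fits without and with the replicate number as a block were tested on simulated data. The simulated noise was independent between arrays, so that test cannot show how the fits behave where arrays with the same number deviate together. The rule for named genes, the members, the lists and the alternatives were chosen with earlier results of these data known. That rule named all members, the 2 genes with the smallest p in each list where none passed, the receptors Ccr1 and Ccr2, the 3 genes most like each member and the markers Csf1r, Adgre1 and Cd68. Cxcl2 and the genes named under other settings fall outside it and were chosen after their values were seen.

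After the group mean was taken off, arrays sharing a number correlated across genes at 0.34 to 0.55. For arrays not sharing one, the range was -0.36 to 0.12. The pairing comes from the titles and this check. Marker lists of fibroblasts, dendritic cells and of mast cells, basophils and eosinophils had 0 genes above the 90th percentile of the background markers. The lists that set this percentile had 0 of 9 (T and NK cells), 1 of 7 (B cells) and 2 of 8 (endothelium) above it. All 8 measured macrophage identity genes lay above it. Python 3.11.15 and matplotlib 3.10.9 drew the figures.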

Additional observations from a re-analysis of the deposited data

Results flagged for a closer look

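Across 64 sets of 4 values (levels within a group for the members, the named receptors, other CC chemokines and markers, and the lists, and the changes of the members over pairs), 3 had an array whose gap to its nearest neighbour took up more of the range than Dixon's 95% critical value. Chance alone gives about 1 in 20, and sets of the same array are not independent. Ccr2 was lowest on the array numbered 1 in both groups, with a gap of 0.837 of the range with hepcidin and 0.909 with PBS. Csf1r was lowest on hepcidin array 1, at 11.59 against 11.91 to 11.97 on the other 3, with a gap of 0.833 of the range. It was also lowest on PBS array 1, at 11.38 against 11.85 to 11.96 on the other 3, where the gap of 0.822 of the range fell just short of the critical value. None of the 8 CC chemokine genes met the rule. Ccl12, whose levels on the arrays numbered 1 were also the lowest of each group, stayed under the critical value, because its other 3 arrays differed among themselves.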

How the results depend on the processing

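No member passed under any of the 20 alternatives tried, and Ccl2, Ccl3, Ccl4 and Ccl7 kept a positive difference in each of them. Leaving out single arrays moved the log2 difference between 0.05 and 0.32 for Ccl2, 0.14 and 0.23 for Ccl3, 0.05 and 0.31 for Ccl4, 0.13 and 0.42 for Ccl7, -0.066 and 0.18 for Ccl5, -0.031 and 0.11 for Ccl6, -0.017 and 0.13 for Ccl9 and -0.38 and 0.64 for Ccl12. Ccl5 turned negative without hepcidin array 4 or PBS array 1, Ccl6 without hepcidin array 3 or PBS array 1, and Ccl9 and Ccl12 without PBS array 1. Without both arrays numbered 1, Ccl12 was at -0.013 with and without the replicate block. For the excess of Ccl3 over Ccl2, the same exclusions gave -0.14 to 0.17. Flipping signs within pairs, the replicate block of that test, gave an exact p of 0.625, where the smallest possible is 0.125.

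The count over all genes, 0 in limma, was 1 with the replicate block (Cxcl2), 5 with a random replicate block (Mir146, Nfkbia, Nfkbie, Nfkbiz and Tnf), 1 without both arrays numbered 1 with the replicate block, and 3 among the 9274 genes with a mean of at least 6 (Nfkbie, Nfkbiz and Tnf), a filter that leaves out Ccl12. Leaving out single arrays gave 0 to 2, the 2 without hepcidin array 2 (Nfkbiz and Tnf). The block changed no call of a member. With Spearman's rho in place of Pearson's r, 1 of the 3 most similar genes was shared for Ccl2, Ccl3 and Ccl5 and 0 for the other 5 members. Ppp1r21 with Ccl6 and 9530068E07Rik with Ccl12 had a rho of 1.0, the highest possible, and still fell outside the 3. Ties at that value therefore decided which genes were kept for these 2 members. Apart from these ties, why was not tested in any of these cases.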

Other observations

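Among genes of the same pathway that the comparison above did not single out, Ccrl2, an atypical receptor gene that binds the chemoattractant chemerin, had 8.15, 7.12, 7.09 and 7.11 on hepcidin arrays 1 to 4, against 7.74, 7.01, 6.56 and 6.74 on PBS arrays 1 to 4. It was chosen after its values were seen. It was higher with hepcidin in 4 of 4 pairs, by 0.41, 0.10, 0.53 and 0.38, and highest on the array numbered 1 in both groups, opposite to Ccr2. In limma its difference was 0.35 ± 0.29 (SE), and with the replicate block 0.35 ± 0.09, where p was 0.00409 unadjusted and 0.784 adjusted. Ccl8, a CC chemokine gene and neighbour of Ccl12, was chosen in the same way. It had 6.73, 5.79, 6.31 and 5.93 on hepcidin arrays 1 to 4, against 6.50, 5.50, 6.18 and 5.62 on PBS arrays 1 to 4. It was higher in 4 of 4 pairs, by 0.24, 0.29, 0.13 and 0.31, and in limma with the replicate block its adjusted p was 0.861. Its mean of 5.95 with PBS lay below the 90th percentile of the background markers, 6.16, and its mean of 6.19 with hepcidin just above it. Unlike Ccl12, it was highest on the array numbered 1 in both groups. Neither gene passed over all genes, of which 5.69% were higher in 4 of 4 pairs.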
